A study of Homo sapiens with 6 samples.

Results

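The RNA of 10 genes of serine, one-carbon and asparagine synthesis was compared between Control and drug-treated LoVo cells, an established cell line of human colorectal adenocarcinoma origin. The 10 were chosen by gene symbol: PHGDH, PSAT1 and PSPH for serine synthesis, SHMT1 and SHMT2 for the step from serine to glycine, MTHFD2, MTHFD1L and ALDH1L2 for mitochondrial folate, PYCR1 for proline and ASNS for asparagine. All 10 had a row among the 19223 symbols of the deposited table, and 9 passed the filter on low values that left 12725 genes for testing. The text uses the following quantities: the deposited value, which is a signal per transcript and library, its level per 1000 bases of transcript, and the log2 fold change of value + 1 between the groups.

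Cells make serine from a glycolytic intermediate in a chain of 3 enzymes, PHGDH, PSAT1 and PSPH. Serine hydroxymethyltransferases then split serine into glycine and a one-carbon unit on folate, SHMT1 in the cytosol and SHMT2 in mitochondria, and mitochondrial MTHFD2 and MTHFD1L turn that unit into formate, which the cytosol uses for purines, thymidylate and methionine. ASNS makes asparagine from aspartate and glutamine, and PYCR1 makes proline in mitochondria. Many of these genes are known targets of ATF4, a transcription factor whose translation increases when amino acids are short or the endoplasmic reticulum is under stress. In tumour cells, serine and one-carbon synthesis is known to feed nucleotide production.

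The groups were 3 Control libraries, whose labels give vehicle for 48 h, and 3 DCC-2036 libraries, given 2.5 μM of that compound for 48 h. DCC-2036, also called rebastinib, is a tyrosine kinase inhibitor. The legend of the study's plot of RNA changes gives a shorter treatment with the same dose. The labels name DMEM as the medium and the study's methods name F-12 for this line, a difference that touches these genes because DMEM as usually made up lacks asparagine and proline and F-12 holds both. All 6 libraries come from 1 cell line, and nothing beyond the titles says that the 3 of a group were separate cultures, so the p-values measure the spread between these libraries, which may be technical.

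Deposited values summed to 38997229 to 40587145 per Control library and 43279603 to 48023306 per DCC-2036 library, and the number of reads behind them is unknown. Of the 9 epithelial markers checked, 7 had a mean of at least 10, VIL1 lay under 10 and CDX1 was listed at 0. Their summed value was 104500 to 115000 in Control and 148300 to 188400 in DCC-2036, mostly through KRT8 (mean 59932 in Control and 108237 in DCC-2036). Of these markers, CDH1 (log2 fold change 1.10, limma, adjusted p = 0.000355) and KRT8 (0.84, adjusted p = 0.00287) were called higher. KRT20, a low gene, fell by 1.15 on that scale (adjusted p = 0.00427), and EPCAM (0.29), KRT18 (0.37), KRT19 (0.04) and CDX2 (-0.09) were not called. Of 9 markers of other cells, 4 stayed under 10 in every library, PTPRC among them at 0, and COL1A1 ran from 353 to 520. They had sums of 387 to 435 in Control and 465 to 587 in DCC-2036. Across all values, DCC-2036 replicate 3 lay farthest from Control (correlation of log2 values 0.893 to 0.895), followed by replicate 2 and replicate 1. Control held 0 values above 0 and under 0.5, and each DCC-2036 library held 2061 to 2354 of them, so the low end of the values differs in form between the groups. How the values were adjusted is not given in the sources used here, and its part in the fold changes was not tested. Neither the number of cells nor the RNA per cell can be read from these values.

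Of the 9 tested genes, 3 passed the limit of an adjusted p-value under 0.01, and all 3 were higher with DCC-2036: ASNS by 5.45-fold, PSAT1 by 3.79-fold and PHGDH by 2.78-fold. None was called lower at that limit, where PSPH, the last step of serine synthesis, stood at 65.2% and SHMT1 at 54.0% of Control. Over all genes tested, 19.2% were called higher, 22.7% lower and 41.9% in either direction, and the 9 were not tested against these shares, which depend on the libraries and the limit. Without DCC-2036 replicate 2, 928 of 12558 genes were called higher and 1708 lower, and requiring a log2 fold change of at least 1 in size left 944 of 12725 higher, while the same 3 members were called in both. The balance of directions over all genes moved with the scaling: 2442 were called higher and 2887 lower with values as deposited, 1669 and 3442 with equal totals, and 2704 and 2627 by the median of ratios. The median log2 fold change was 0.30 over the 9 genes and -0.09 over all genes tested. At a looser limit of 0.05, 5 were higher and 2 lower, where 62.2% of all tested genes passed in either direction. The groups of libraries stood apart in 8 of the 9 genes, 6 with DCC-2036 above Control and 2 below, beside 71.1% of all tested genes without overlap (32.9% above and 38.1% below). The plot of values per library shows each gene on its own scale.

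PHGDH oxidises 3-phosphoglycerate and commits it to serine. The gene lies at chr1:119648411-119744226 on the forward strand (positions of all genes are those of GENCODE 29 on GRCh38). In the deposited values its only transcript stood at 1495, 1511 and 1684 in Control and 3915, 4369 and 4738 with DCC-2036. The lowest treated library was far above the highest Control library. The log2 fold change was 1.47 with a standard error of 0.12 and a 95% interval of 1.19 to 1.75 (limma, adjusted p = 0.000306).

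PSAT1 transfers an amino group from glutamate in the step that follows, and lies at chr9:78297143-78330093 on the forward strand. It stood at 2354, 2582 and 2517 in Control and 8334, 9567 and 10349 with DCC-2036. The groups stood far apart, and replicate 3 was again the highest of the treated libraries. On the log2 scale the fold change was 1.92 with a standard error of 0.12 and a 95% interval of 1.63 to 2.20 (limma, adjusted p = 0.000198). Both of its listed transcripts were called higher, with log2 fold changes of 1.92 and 1.93.

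PSPH removes the phosphate and releases serine, at chr7:56011051-56051604 on the reverse strand. It read 826, 862 and 802 in Control and 649, 555 and 419.5 with DCC-2036, below Control in all 3 treated libraries and lowest in replicate 3. The log2 fold change of -0.64 (95% interval -1.05 to -0.23) missed the limit with an adjusted p of 0.0173 (limma). Without DCC-2036 replicate 1 it was -0.78 and passed (adjusted p = 0.00498). The first 2 enzymes of the chain therefore had higher RNA in every treated library, and the last enzyme had lower values in every treated library. Within each library, the log2 ratio of PHGDH to PSPH went from a mean of 0.91 in Control to 3.02 in DCC-2036, a difference of 2.11, and that of PSAT1 to PSPH differed by 2.56. These ratios were chosen after the values had been seen, and the exact permutation p of 0.1 for each is the smallest that 3 against 3 libraries allow.

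**Figure D1:**
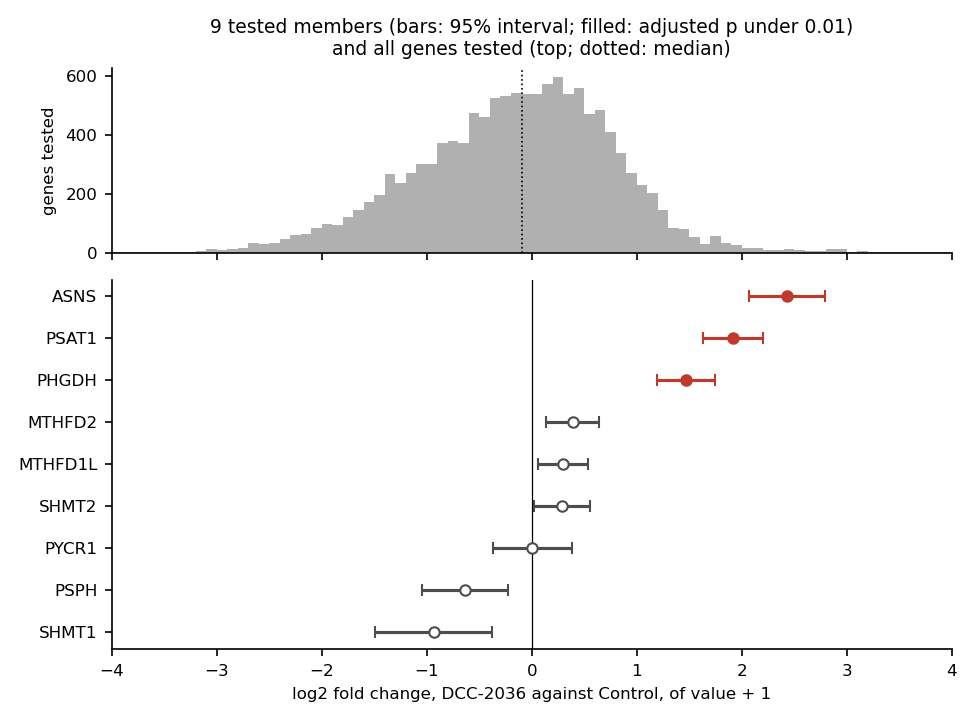
Log2 fold change of value + 1, DCC-2036 against Control, for the 9 tested genes (lower panel, points with 95% intervals, filled where the adjusted p-value was under 0.01) on the same horizontal axis as a histogram of all 12725 tested genes (upper panel, dotted line at the median of -0.09). The axis is cut at -4 and 4. ASNS at 2.43, PSAT1 at 1.92 and PHGDH at 1.47 are the filled points, while the interval of PYCR1 spans 0.

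SHMT1, the cytosolic serine hydroxymethyltransferase, lies at chr17:18327860-18363563 on the reverse strand. It read 1259.9, 1295 and 1436 in Control and 928, 735 and 491 with DCC-2036. Every treated library was below every Control library, and the treated libraries differed among themselves by more than the Control libraries did. This made a log2 fold change of -0.93 (95% interval -1.49 to -0.37), with an adjusted p of 0.0133 (limma). It passed the limit without DCC-2036 replicate 1 (-1.14, adjusted p = 0.00319) and without DCC-2036 replicate 3 (-0.69, adjusted p = 0.00601). With all 32323 tested transcripts in 1 fit, 1 of its 3 transcripts was called lower (adjusted p = 0.00938), beside 22.4% of all transcripts. The gene shares 196 bases with SMCR8 on the opposite strand.

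SHMT2, its mitochondrial counterpart, lies at chr12:57229327-57234935 on the forward strand. It stood at 3578, 3896 and 4149 in Control and 4371, 4748 and 5058 with DCC-2036. The highest Control library was close below the lowest treated one. SHMT2 had a log2 fold change of 0.29 (95% interval 0.02 to 0.55) and was not called (limma, adjusted p = 0.0611), and it was 0.09 with libraries scaled to equal totals (adjusted p = 0.425). Its 5 transcripts had log2 fold changes of 0.27 to 0.31.

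MTHFD2, a mitochondrial dehydrogenase and cyclohydrolase that acts on one-carbon folates and is highly expressed in many tumours, lies at chr2:74198562-74217565 on the forward strand. It read 5077, 5558 and 5049 in Control and 6603, 7383 and 6551 with DCC-2036, apart but near each other, a ratio of means of 1.31. Its log2 fold change was 0.39 (95% interval 0.14 to 0.64, limma, adjusted p = 0.0175), not called with the values as deposited and called with libraries scaled by the median of ratios (0.47, adjusted p = 0.00946). Scaled to equal upper quartiles it was 0.32 (adjusted p = 0.0311) and scaled to equal totals 0.19 (adjusted p = 0.163), not called in either. GENCODE 29 names 7 MTHFD2 pseudogenes, and how reads were shared between such copies is not given in the sources used here. The same holds for the 4 named pseudogenes of ASNS, the 4 of PSAT1, and 1 each of PSPH and SHMT1.

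MTHFD1L, the mitochondrial formate-releasing synthetase, lies at chr6:150865549-151101887 on the forward strand. Its transcript of highest deposited value, NM_001242767.1, stood at 1815, 1836 and 1827 in Control and 2076, 2338 and 2341 with DCC-2036. The Control libraries were within a narrow range, and all treated ones lay above it. With a log2 fold change of 0.30 (95% interval 0.06 to 0.54) it missed the limit (limma, adjusted p = 0.0360), and it was 0.10 with libraries scaled to equal totals (adjusted p = 0.333). ALDH1L2, which in mitochondria burns formyl-folate to carbon dioxide, lies at chr12:105019784-105084577 on the reverse strand and was listed at 5.54, 18.03 and 5.38 in Control and 9.30, 6.53 and 5.97 with DCC-2036. It did not reach 10 in 3 libraries, so it was not tested, and its groups overlapped.

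The tested transcripts of 1 member had close log2 fold changes except in MTHFD1L. Rows of 1 gene are not independent, so their likeness is not replication. For example, NM_001166357.1 and NM_001166359.1 of SHMT2 both stood at 3229.63 in Control replicate 1. Of 30 transcripts listed for the 10 genes, all were found in GENCODE 29. The 6 transcripts of ASNS spanned log2 fold changes of 2.34 to 2.44 and the 6 of PYCR1 from -0.03 to 0.05. In MTHFD1L, the 3 long transcripts were at 0.19 to 0.30 and none was called, while the short one, NM_001242769.1, was at 2.19 (standard error 0.15, limma over all transcripts, adjusted p = 0.000237), beside 19.7% of all transcripts called higher and 42.2% called in either direction. It read 305, 334 and 305.5 in Control and 1205, 1426 and 1746 with DCC-2036, so every treated library exceeded every Control library by a wide margin. The spread of 2.01 between MTHFD1L transcripts ranked 34th among 7490 symbols with 2 or more tested transcripts, where the median spread was 0.05. The log2 ratio of the short to the most abundant transcript was -2.57, -2.46 and -2.58 in Control and -0.78, -0.71 and -0.42 with DCC-2036, a difference of 1.89. This contrast within the gene was chosen after its values had been seen, and its exact permutation p was 0.1, the smallest possible.

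The short MTHFD1L transcript has 1049 bases in 8 exons. It shares the first 7 exons, 887 bases, with long transcripts and ends in an exon of its own of 162 bases, which lies between the exons 7 and 8 of NM_001242767.1. That exon is the only annotated stretch that sets the short transcript apart. Of the 143 stretches of 20 bases in this exon, 35% also occurred, on either strand, in transcripts of other genes, all within its first 92 bases, and of 57133 gene names searched 527 others held at least 1. In the 7 shared exons the share was 4.03%, and 528 other gene names held at least 1 such stretch. How reads in such stretches were assigned is not given in the sources used here, and their part in the value was not tested. The deposited values carry no position, so reads in the shared exons and in the last exon cannot be told apart.

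PYCR1, the mitochondrial reductase that completes proline, lies at chr17:81932384-81942412 on the reverse strand. It stood at 3262, 3850.3 and 3901 in Control and 3061, 3751 and 4323 with DCC-2036, with the lowest and the highest library both among the treated ones. The log2 fold change was 0.01 (95% interval -0.37 to 0.39, limma, adjusted p = 0.974), an interval that covers changes of either sign, and its sign turned with libraries scaled to equal totals (-0.19). The gene overlaps MYADML2 on the same strand over 2768 bases.

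ASNS, which makes asparagine, had the highest log2 fold change of the 9 genes. It lies at chr7:97852118-97872542 on the reverse strand. The values were 1481, 1567 and 1453 in Control and 6730.3, 8132 and 9686 with DCC-2036. Control libraries lay close together, the treated ones were far above and differed more among themselves, with replicate 3 the highest. The log2 fold change was 2.43 with a standard error of 0.15 and a 95% interval of 2.07 to 2.79 (limma, adjusted p = 0.000204), and all 6 transcripts were called higher. An annotated processed transcript, AC079781.5, overlaps ASNS on the same strand over 20425 bases.

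Per 1000 bases of transcript, the levels took another order in the treated cells. The order rests on 1 transcript per gene, that of highest deposited value, and depends on this choice. Levels of the listed transcripts ran from 1244 to 2640 for PYCR1 in Control and from 571.7 to 1391 for MTHFD1L with DCC-2036. In Control the order was PYCR1 (1979 ± 191, SD, n = 3), SHMT2 (1527 ± 113), MTHFD2 (1173 ± 64.2), PSAT1 (1135 ± 53.5), PHGDH (746 ± 50.1), ASNS (637 ± 25.3), SHMT1 (539.9 ± 37.8), MTHFD1L (525 ± 3.08), PSPH (389.7 ± 14.1) and ALDH1L2 (1.28 ± 0.961). The libraries of MTHFD2 and PSAT1 overlapped, as did those of SHMT1 and MTHFD1L, and the other neighbours were apart. In DCC-2036, PSAT1 (4304 ± 464) and ASNS (3473 ± 627.5) came first with overlapping libraries, followed by PHGDH (2071 ± 197), PYCR1 (2001 ± 341) and SHMT2 (1863 ± 136), where neighbours also overlapped. MTHFD2 (1536 ± 105), MTHFD1L (648 ± 43.7), SHMT1 (291 ± 88.8), PSPH (254 ± 54.1) and ALDH1L2 (0.963 ± 0.237) stood below, with SHMT1 and PSPH overlapping. ASNS thus moved from the sixth place to the second.

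Mitochondrial enzymes were then set against a related enzyme in the same library, a cytosolic counterpart for SHMT2 and MTHFD1L and a mitochondrial paralogue for MTHFD2. The 3 log2 ratios given here were higher in the 3 DCC-2036 libraries than in the 3 Control libraries, without overlap. SHMT2 to SHMT1 went from 1.54 ± 0.04 (SD, n = 3) to 2.76 ± 0.57, a difference of 1.22 with a standard error of 0.33. MTHFD2 to MTHFD2L, a low-expressed mitochondrial paralogue, went from 5.74 ± 0.24 to 6.88 ± 0.64, a difference of 1.14 (standard error 0.39). MTHFD1L to MTHFD1, the cytosolic enzyme that handles the same folates, went from -0.28 ± 0.06 to 0.72 ± 0.25, a difference of 1.01 (standard error 0.15). Exact permutation p-values were 0.1 for each of the 3 and 0.1 after Benjamini-Hochberg adjustment over the 4 pairs computed, the smallest this design allows. ALDH1L2 to ALDH1L1 was left out because neither passed the filter on low values.

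In these 3 ratios the partner had a log2 fold change further from 0 than the gene it was set against, and below 0. MTHFD1 stood at 2210.5, 2145 and 2311 in Control and 1464, 1465 and 1172 with DCC-2036, and fell by 0.71 on the log2 scale (limma, adjusted p = 0.00354). All its treated libraries lay below Control. MTHFD2L was low, at 80.7, 123 and 91.0 in Control and 59.1, 38.3 and 82.4 with DCC-2036, and its groups overlapped.

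**Figure D2:**
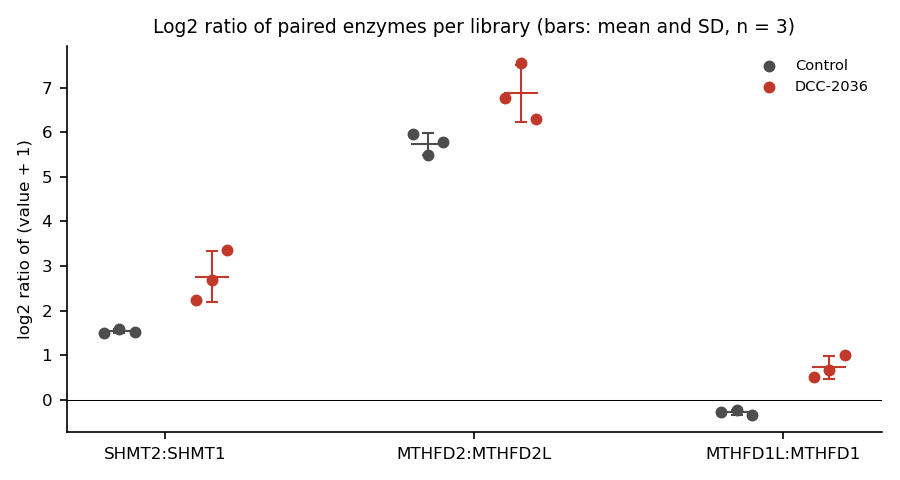
Log2 ratio of (value + 1) of paired enzymes in each Control (grey) and DCC-2036 (red) library, with mean and SD (n = 3). In the 3 pairs shown the 3 DCC-2036 libraries lie above the 3 Control libraries, with a difference between 1.01 (MTHFD1L to MTHFD1) and 1.22 (SHMT2 to SHMT1).

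Around the 10 genes, 54 of 59 listed enzymes and carriers of the neighbouring pathways were tested, with 16 called higher, 16 called lower and a median log2 fold change of 0.04. Without single libraries, 5 to 15 were called higher and 6 to 17 lower. A replicate block gave 8 higher and 8 lower, and equal totals 12 higher and 18 lower. The counts of these lists stand beside the shares over all tested genes, 19.2% called higher, 22.7% lower and 41.9% in either direction, and no list was tested against them. The other genes of the folate cycle had 0 called higher and 7 called lower of 15 tested, with a median of -0.60. SLC46A1, a proton-coupled folate carrier, was at 495, 556 and 602 in Control and 106, 84.6 and 112 with DCC-2036, so that all treated libraries were far below (log2 fold change -2.44, limma, adjusted p = 0.000193). SFXN2, a mitochondrial carrier of the sideroflexin family that includes serine transporters, fell by 1.73 on the log2 scale. Of the 15, 8 were not called.

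The glycine cleavage system breaks glycine down in mitochondria and hands its one-carbon unit to folate. Of its 4 genes, 3 were called higher and 0 lower, with a median of 0.71: AMT (1.02, at values under 60 in every library), DLD (0.92), which also serves other dehydrogenase complexes, and GCSH (0.51). GLDC, the decarboxylase, was low and not called, at 62.1, 57.0 and 64.5 in Control and 94.2, 65.1 and 70.6 with DCC-2036. In the methionine cycle and transsulfuration, 2 of 7 tested genes were called higher and 0 lower: MTRR, which reactivates methionine synthase, at 1.12, and CTH, which releases cysteine, at 0.90. Their list had a median of -0.05.

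Purine ring synthesis, which takes 2 formyl groups from folate, had 1 gene called higher and 4 called lower of 8 tested. PPAT, the committed step, stood at 1695, 1655 and 1546 in Control and 2568, 3307 and 4422 with DCC-2036, all treated libraries above Control (log2 fold change 1.04, limma, adjusted p = 0.00514). PFAS fell by 1.89 and ADSL by 1.47 on the log2 scale. GART, which carries 1 of the formyl transfers, fell by 0.99 in its transcript of highest deposited value. The list's median was -0.59.

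Among the other genes of proline and ornithine, 3 of 6 were called higher and 2 lower. OAT, which links ornithine to the proline precursor, rose by 1.32 on the log2 scale from 3072, 3298 and 2998 in Control to 6538, 8008 and 9024 in DCC-2036, with no overlap. ALDH18A1, the first enzyme from glutamate to proline, rose by 0.53, and ALDH4A1, which runs in the direction of breakdown, by 0.45. PYCR3, listed under the older symbol PYCRL, fell by 1.44. The list of glutamine, glutamate and aspartate had 5 called higher and 1 lower of 10, with a median of 0.54. GOT1, which makes cytosolic aspartate or uses it, rose by 1.13, GLUD1, which interconverts glutamate and 2-oxoglutarate, by 0.94, and ASS1, which joins aspartate to citrulline, by 0.88, whereas GLUL, the glutamine synthetase, fell by 0.54.

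Of the genes that use or break down serine, 2 were called higher and 2 lower of 4 tested. SPTLC2 and SPTLC1, subunits of the enzyme that starts sphingolipid synthesis from serine, rose by 1.18 and 0.89 on the log2 scale. SDSL, a serine dehydratase-like gene, fell by 1.59 and SRR, which makes D-serine, by 0.77. The dot plot by list sets these genes beside the members.

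**Figure D3:**
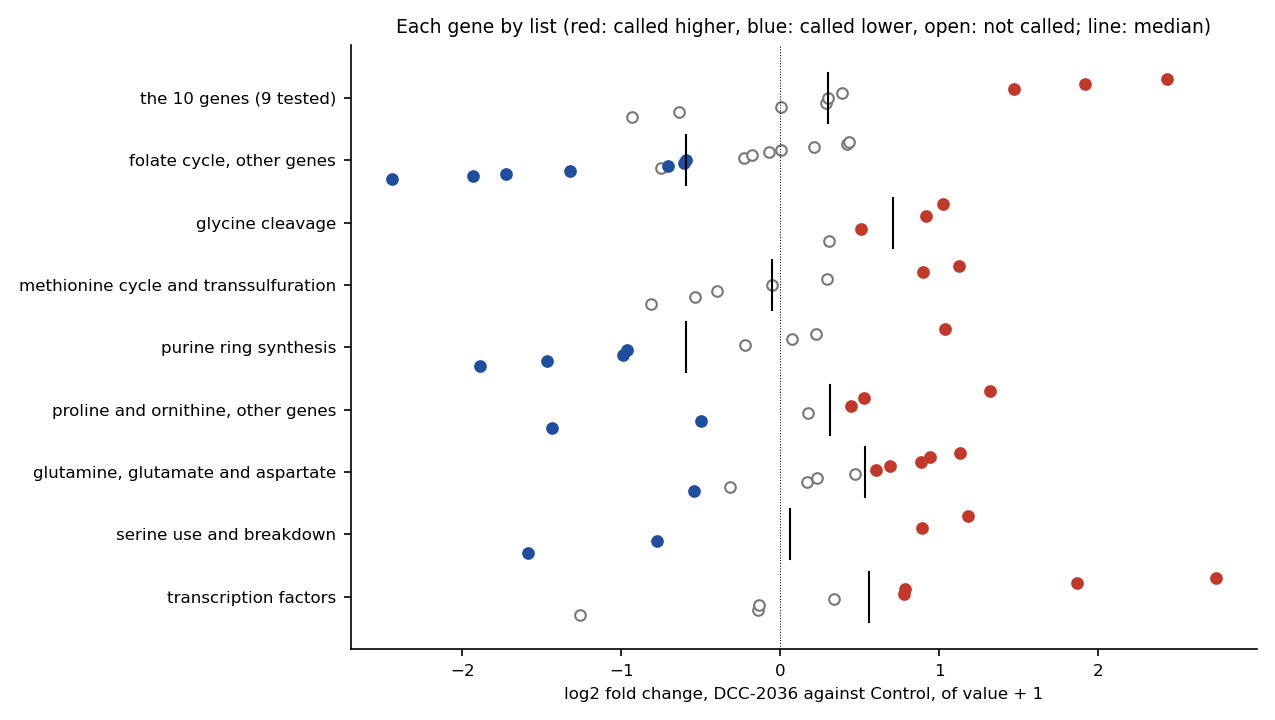
Log2 fold change of value + 1 (horizontal axis), DCC-2036 against Control, of each tested gene in the members' list and 8 neighbouring lists (1 row each), red where called higher, blue where called lower and open where not called at an adjusted p-value under 0.01, with a black line at the list's median. The folate cycle row has 7 blue and 0 red points, the glycine cleavage row 3 red and 0 blue.

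Of 8 transcription factors known to act on these genes, 4 were called higher and 0 lower, beside 19.2% of all tested genes called higher and 41.9% called in either direction. ATF4 stood at 5674, 6016 and 5841 in Control and 8606, 10189 and 11608 with DCC-2036, all treated libraries above Control, and rose by 0.78 (standard error 0.13, limma, adjusted p = 0.00316). CEBPG, a C/EBP family partner of ATF4, had 1064, 988 and 1015 in Control against 2512, 3630.02 and 5718 and rose by 1.87, and ATF3, a stress-induced member of the ATF family, had 182, 176 and 175 against 891, 1258 and 1519 and rose by 2.74. NFE2L2, the regulator of the antioxidant response, rose by 0.78 with an adjusted p of 0.00961, close to the limit. Not called were DDIT3, a stress gene commonly induced with ATF4 (202, 226 and 219 against 187, 194 and 209), and CEBPB (log2 fold change -0.14). MYC, at 0.34, was not called either. RNA of ATF4 does not measure its translation, by which it is mainly controlled.

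Promoter windows from RefSeq (GRCh38.p14), 250 bases before to 50 after an annotated start, held 6 of the 10 genes. Both strands were searched for TGATGNAA, the core of the element that ATF4 and C/EBP proteins are known to bind together, which occurred in 3.62% of 35116 windows and in 4.46% of genes. It occurred in 2 of the 6 genes, ASNS and MTHFD1L, and these windows are shown because the element has long been known in ASNS and because they are the windows of these genes that hold it. PHGDH and PSAT1, also called higher, had no match to these letters in their windows, as SHMT1 and MTHFD2 had none. A match describes the letters only. The ASNS window is chr7:97872359-97872658 on the reverse strand and the MTHFD1L window is chr6:150866236-150866535 on the forward strand, both written 5′ to 3′ along the gene, with the match in capitals.
ASNS window: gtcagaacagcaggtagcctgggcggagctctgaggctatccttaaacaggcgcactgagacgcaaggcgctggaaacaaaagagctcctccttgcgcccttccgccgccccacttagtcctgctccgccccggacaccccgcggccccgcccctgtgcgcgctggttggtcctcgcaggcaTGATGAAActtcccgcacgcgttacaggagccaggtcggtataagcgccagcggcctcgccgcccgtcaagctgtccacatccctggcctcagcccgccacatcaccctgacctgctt
MTHFD1L window: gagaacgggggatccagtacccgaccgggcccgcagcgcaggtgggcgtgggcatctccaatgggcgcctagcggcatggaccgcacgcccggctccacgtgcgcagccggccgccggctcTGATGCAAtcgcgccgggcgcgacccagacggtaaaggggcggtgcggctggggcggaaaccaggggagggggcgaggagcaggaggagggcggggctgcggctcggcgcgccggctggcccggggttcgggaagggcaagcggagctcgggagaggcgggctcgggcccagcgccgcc
In ASNS the match is TGATGAAA, beginning at base 183 of the window. That base lies 68 bases before the start of that window's transcript in RefSeq. In GENCODE 29 it lies 66 bases after the first base of NM_183356.3, the transcript of highest deposited value. In MTHFD1L the match is TGATGCAA, beginning at base 122, and is also in 2 other windows of the gene. It lies 641 bases after the first base of the short transcript, beyond its first exon, and 24 bases after that of NM_001242768.1. The MTHFD1L window also holds CACGTG, the E-box letters that MYC and related factors are known to bind, at base 97, a word of 6 bases found in 7.26% of windows.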

How the data were processed

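RNA of LoVo cells was sequenced in 6 libraries from an Illumina Nextera XT preparation, which does not mark strand. The authors deposited 1 value per RefSeq transcript and library, a signal that is neither whole nor in steps of 1 read. Its adjustment, aligner, counter, annotation and build are not given in the sources used here. The log2 fold changes, p-values and q-values that the authors deposited for their own comparison were not used. In 45006 rows, 4524 were at 0 in all libraries, and each DCC-2036 library had 5697 rows at 0 against 7844 to 8078 in Control. Values above 0 and under 0.5 numbered 0 in each Control library and 2061 to 2354 in the DCC-2036 libraries, where the lowest was 0.00326. There were 0 other columns of values per sample.

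Each symbol was represented by its transcript of highest mean across libraries. Symbols that reached a value of 10 in 3 or more libraries entered the test on log2(value + 1) with limma 3.58.1 in R 4.3.3, two-sided, without covariates, with Benjamini-Hochberg adjustment over all 12725 genes and a limit of 0.01. On this scale, changes of low genes are understated. Exact permutation tests, two-sided, used scipy 1.17.1 in Python 3.11.15. The code was tested on simulated data. Levels per 1000 bases used transcript lengths from GENCODE 29.

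The members and lists were chosen with earlier results of these data known. All 10 members are named. Of the other lists, called genes without overlap are named, at most the 3 highest and 3 lowest per list, besides the transcription factors and pair partners. Some items that fall under this rule are not reported here. GLDC, and the genes of the closing section other than the 5 most alike, were named after their values had been seen. Alternatives were 3 scalings, 2 filters, a pseudocount of 0.1, a replicate block, limma with a trend, all transcripts as rows, sums of transcripts, other limits and each library left out. Those for transcripts of 1 gene were added after the data had been seen.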

Additional observations from a re-analysis of the deposited data

How the results depend on the processing

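ASNS (log2 fold change 2.23 to 2.56, adjusted p 1.34e-05 to 0.00399), PSAT1 (1.72 to 2.00) and PHGDH (1.27 to 1.55) kept direction and call in all 16 settings run for each. PYCR1 changed sign with equal totals (-0.19), with equal upper quartiles (-0.059) and between -0.11 and 0.14 with single libraries left out. Equal totals moved the median of all genes from -0.09 to -0.29. SHMT2 was called in 0 of its 16 settings, PSPH in 2, SHMT1 in 4, MTHFD2 in 2 and MTHFD1L in 1, the sum of its transcripts (0.46, adjusted p = 0.00998). With equal totals MTHFD2 was 0.19, MTHFD1L 0.10 and SHMT2 0.09, none called. The 3 enzyme ratios given kept direction in 12 settings each.

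Members called lower numbered 1 with a filter of 10 in every library, beside 2913 of all genes. They numbered 2 with a trend in limma, beside 3307 of all genes. Members called higher numbered 4 with the trend, by the median of ratios and with sums of transcripts. Beside them, 2880, 2704 and 2341 of all genes were called higher. At a limit of 0.05, 5 members were higher and 2 lower. Leaving out 1 library gave 3 higher in every case and 0 to 2 lower. Over all transcripts, 10 member rows were higher and 1 lower, 55 and 34 rows of the other pathway genes, and 6379 and 7250 rows in all, because 1 gene has several rows.

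Other pathway genes called higher numbered 10 with no filter. Requiring an absolute log2 fold change of 1 left 6 higher and 8 lower, and 944 higher of all genes. Without single libraries they numbered 5 to 15 higher and 6 to 17 lower, and all genes 928 to 2675 higher and 1514 to 3507 lower. Counts over all genes were lower without any Control library or DCC-2036 replicate 2, and higher without DCC-2036 replicate 1 (2675 and 3507) or replicate 3 (2487 and 3253). The cause was not tested.

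With a replicate block, 8 other pathway genes were called higher and 8 lower, and 1202 and 1909 of all genes, while the calls of the 3 members stayed. Whether same-numbered libraries belonged together is not given. Their deviations correlated at 0.08, -0.04 and -0.0033, and those of pairs with unlike numbers at -0.06 to 0.09. These correlations cannot show whether such libraries shared a batch. With depth unknown, ALDH1L2 cannot be resolved.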

Other observations

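The 5 genes whose values were most like the mean of the members' centred log2 values, by Pearson correlation over the 6 libraries among 3943 genes with a mean of at least 1000, were PTPN1, GET4, NRBP1, TPD52L2 and ACVR1B. The correlation was 0.9997 for PTPN1 and 0.9987 for ACVR1B. PTPN1, a protein tyrosine phosphatase, stood at 1609, 1752 and 1784 in Control and 2751, 3009 and 2881 with DCC-2036. Of the 3943 genes compared, 166 had a correlation of at least 0.99, so this likeness is not particular to the 5 named. It is a description without a test.

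The higher log2 fold change listed for the short transcript of MTHFD1L had counterparts elsewhere. Here too the values carry no position, so whether the transcripts themselves shifted was not tested. In 883 symbols a tested transcript began within 1000 bases of a longer one and ended at least 5000 bases before it. The short transcript had the higher log2 fold change in 624 of them and the lower in 254, with a median difference of 0.10. The difference was at least 1 in 87 symbols and at most -1 in 9. When single libraries were left out, the first count ran from 71, without DCC-2036 replicate 3, to 105, without DCC-2036 replicate 1, and the second from 6 to 13. Short and long transcripts were not matched for level or length, and no test was made of these counts.

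MTHFD1L ranked 21st of the 883, where it was compared with NM_015440.4. The log2 fold change of its short transcript was 2.06 without DCC-2036 replicate 3 and 2.32 without DCC-2036 replicate 1. The first of the 883 was ASCC3, a helicase subunit, whose short transcript was at 2.37 (limma, adjusted p = 0.0006) and whose long one was at -1.12 (adjusted p = 0.0004).

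GART, the purine enzyme that uses formyl-folate, showed a difference of the same sign. Its short transcript, NM_175085.2, stood at 2149, 2115 and 2083 in Control and 1995, 2044 and 2199 with DCC-2036, a log2 fold change of -0.03 (limma over all transcripts, adjusted p = 0.816), and its groups overlapped. Its 3 long transcripts had log2 fold changes of -1.03 to -0.99 and were all called lower.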
